A study of Homo sapiens with 4 samples.

Results

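Small nucleolar RNA (snoRNA) host genes were examined in 2 human prostate cancer lines given morusin. The members were the rows of the gene table whose Ensembl identifier maps to a symbol made of SNHG and a number, or to GAS5, ZFAS1, EPB41L4A-AS1 or DANCR. They came to 32 of 60617 genes and lie on 15 chromosomes. The libraries were 22Rv1 cells in RPMI medium with 75 µM morusin for 6 h, untreated 22Rv1 cells in the same medium, PC3 cells in F12 medium with 46 µM morusin for 6 h, and untreated PC3 cells. Both media held heat-inactivated fetal bovine serum, penicillin and streptomycin, and each of the 4 groups had 1 library. 22Rv1 is an established line from a prostate carcinoma xenograft that responds to androgen, PC3 is an established line from a bone metastasis that lacks androgen receptor signalling, and morusin is a prenylated flavonoid from mulberry. Dose and medium differ between the lines, so neither can be told apart from the line.

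A snoRNA host gene is transcribed and spliced like a messenger RNA gene, and its introns are processed into snoRNAs that guide the chemical modification of ribosomal RNA. Box C/D snoRNAs guide ribose methylation and box H/ACA snoRNAs guide pseudouridylation. In the members described here the joined exons mostly encode no conserved protein. Many of these spliced RNAs are engaged by ribosomes and then removed by nonsense-mediated decay, so that they accumulate when translation is blocked, and several begin with the run of pyrimidines that marks the mRNAs of ribosomal proteins.

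The level of a gene is given in FPKM, fragments per kilobase of transcript and per M mapped fragments (M, mega). A change within a line is log2 of (FPKM with morusin + 1) over (FPKM untreated + 1), for genes that reach 1 FPKM in at least 1 library of that line. With 1 library a group no test exists within a line, and a size of 2-fold was used as a description. Across the lines, limma was fitted with line and treatment as terms, with Benjamini-Hochberg adjustment over 13980 genes. Its estimate of spread rests on 1 residual degree of freedom besides the spread borrowed across genes. Of the members, 28 entered this fit, 21 reached 5 FPKM in a library, 4 stayed under 1 FPKM in every library, and 1 of these 4, SNHG27, was listed at 0 throughout. In bulk RNA, fewer cells that use a gene and less of its RNA per cell cannot be told apart.

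Depth was estimated from the steps between low values at 19.1 M read pairs in morusin-treated 22Rv1, 23.5 M in untreated 22Rv1, 28.7 M in treated PC3 and 40.6 M in untreated PC3. These figures are rough, because only 57 to 81 low values a library lay at the step. Of the androgen receptor targets, KLK4 had 429 and 288 FPKM and KLK2 had 20.4 and 13.2 FPKM in treated and untreated 22Rv1, while in PC3 KLK2 and KLK3 were listed at 0 in both libraries and KLK4 did not exceed 0.0174 FPKM. FKBP5, which other steroid receptors also induce, had 172 and 274 FPKM in treated and untreated 22Rv1 and 16.7 and 12.4 FPKM in treated and untreated PC3, and TMPRSS2 had 5.05 and 5.99 FPKM in treated and untreated 22Rv1 and 1.26 and 2.32 FPKM in treated and untreated PC3. Markers of leukocytes, fibroblasts and endothelium, 12 in number, summed to 3.01 and 3.02 FPKM in treated and untreated 22Rv1 and to 3.32 and 5.32 FPKM in treated and untreated PC3, with VWF and CDH5 at 0.

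The start sites of the hosts were read from RefSeq (GRCh38.p14), whose table held 28 of the 32 members and not SNHG6, SNHG9, SNHG15 or SNHG25. A start was counted as pyrimidine-like when the first transcribed base was C and at least 4 further C or T followed. That held for 7 of 28 members (25%), namely SNHG4, SNHG5, SNHG12, SNHG18, SNHG19, SNHG32 and ZFAS1, against 4.07% of all 35116 promoters in the table. The 6 of these that were measured above 1 FPKM are shown because their starts resemble those of ribosomal protein mRNAs, each from 40 bases before the start to 20 bases from it, 5′ to 3′ on the gene's strand, with the unbroken pyrimidine run in capitals.
SNHG12 (chr1:28581854-28581913, minus strand): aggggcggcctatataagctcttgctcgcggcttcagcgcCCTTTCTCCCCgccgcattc
SNHG4 (chr5:139274061-139274120, plus strand): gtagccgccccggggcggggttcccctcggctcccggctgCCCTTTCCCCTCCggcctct
SNHG5 (chr6:85678714-85678773, minus strand): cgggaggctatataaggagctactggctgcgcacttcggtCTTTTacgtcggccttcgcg
SNHG32 (chr6:31834876-31834935, plus strand): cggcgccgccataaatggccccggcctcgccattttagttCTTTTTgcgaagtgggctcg
SNHG19 (chr16:2155339-2155398, minus strand): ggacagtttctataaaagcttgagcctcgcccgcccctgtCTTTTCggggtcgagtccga
ZFAS1 (chr20:49278602-49278661, plus strand): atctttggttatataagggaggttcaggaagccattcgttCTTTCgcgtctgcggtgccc

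Members whose RefSeq start did not meet this definition include GAS5 and SNHG17, which are among those with the larger changes in 22Rv1. The RefSeq start of GAS5, at 173869045, lies upstream of its GENCODE 29 span, which begins at 173868882 on the minus strand. That of SNHG14, at 24823608 on the plus strand, also lies upstream of its span, which begins at 24978583. In SNHG12 and SNHG20 the RefSeq start lies inside the span and not at its edge. The windows of GAS5 and SNHG17 are given for comparison with only the first transcribed base in capitals.
GAS5 (chr1:173869026-173869085, minus strand): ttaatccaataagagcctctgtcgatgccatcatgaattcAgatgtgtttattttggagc
SNHG17 (chr20:38435309-38435368, minus strand): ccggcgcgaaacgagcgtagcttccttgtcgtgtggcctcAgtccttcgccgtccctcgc

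The pyrimidine run was then allowed to begin within 5 bases of the RefSeq start. Of 28 members 13 (46.4%) held one, SNHG8 and SNHG17 among them, against 21.1% of all promoters. The letters TATAA lay on the gene's strand 40 to 16 bases before the start in 6 of 28 members (21.4%), SNHG5, SNHG7, SNHG8, SNHG12, SNHG19 and ZFAS1, against 3.91% of all promoters. That pattern was added after the sequences had been seen. Short motifs searched on both strands over 250 bases before to 50 after the start were about as frequent or less frequent in the members. CACGTG was in 7.14% of member promoters and 7.26% of all, CCGGAAG in 7.14% and 10.3%, and TGACG in 25% and 24.6%. These are matches of letters in a window and not shown to be sites.

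The hosts together made up 1479 FPKM in morusin-treated and 902.7 FPKM in untreated 22Rv1, and 507.8 FPKM in treated and 401.9 FPKM in untreated PC3. As a share of each library's summed FPKM this was 0.362% and 0.253% in treated and untreated 22Rv1, and 0.142% and 0.120% in treated and untreated PC3. The sum was carried unevenly. SNHG29 and GAS5 held 53.9% and 51.6% of it in treated and untreated 22Rv1, and 30.0% and 26.3% in treated and untreated PC3. Without these members the sum was still higher with morusin, at 683 against 437 FPKM in 22Rv1 and 356 against 296 FPKM in PC3.

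**Figure D1:**
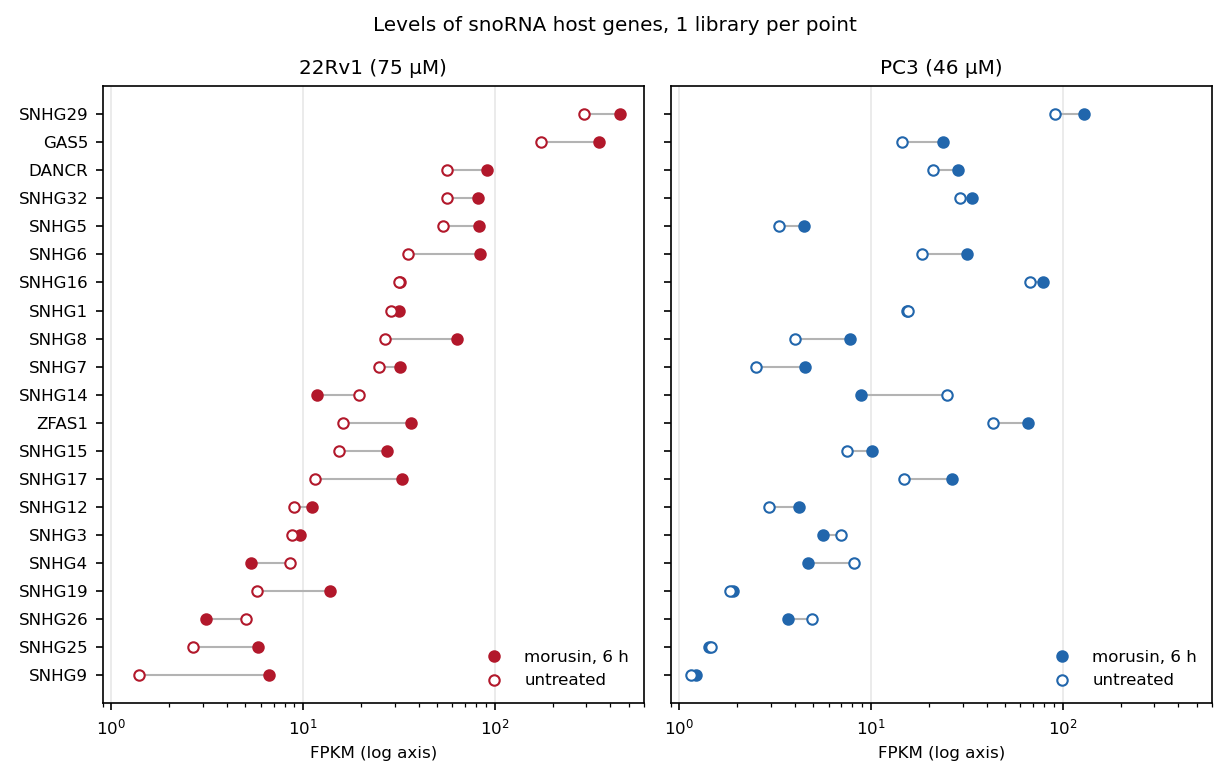
FPKM of the 21 hosts that reached 5 FPKM in at least 1 library, on a log axis, with filled points for morusin and open points for untreated cells in each line. SNHG29 was the most abundant host in all 4 libraries, at 448 and 293 FPKM in treated and untreated 22Rv1 and 129 and 91.1 FPKM in treated and untreated PC3.

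In 22Rv1 most hosts were higher with morusin. The change was above 0 for 22 of 27 members, against 49.4% of all genes compared in that line, and the median change was 0.40, against -0.01 over all genes. At least 2-fold higher were 7 of 27 members, SNHG9, SNHG17, SNHG6, SNHG8, ZFAS1, SNHG19 and GAS5, where 3.48% of all genes were. None of the 27 was at least 2-fold lower, where 1.02% of all genes were. In PC3 the shift was smaller. There 20 of 28 members were above 0, against 44.2% of all genes, with a median of 0.14 against -0.05 over all genes, 0 of 28 were at least 2-fold higher, where 1.24% of all genes were, and 1 of 28, SNHG14, was at least 2-fold lower, where 2.64% of all genes were. With a constant of 5 in place of 1, or with libraries rescaled to equal sums, 3 and 4 members were at least 2-fold higher in 22Rv1. The share of all genes past 2-fold in these settings is not given here. The median of all genes in 22Rv1 was -0.01 with a constant of 5 and -0.18 after rescaling. The member medians moved as well, in 22Rv1 to 0.26 after rescaling and 0.62 with a filter of 5 FPKM, and in PC3 to 0.05 with a constant of 5, 0.08 after rescaling, 0.21 with a constant of 0.1, 0.23 under median scaling and 0.40 with a filter of 5 FPKM. Over all genes the median in 22Rv1 with that filter was 0.0009. In PC3 the medians of all genes, in the order just given, were -0.03, -0.14, -0.06, 0.08 and -0.03.

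The limma treatment term called 0 of 28 members higher, where 0.351% of all genes were called, and 0 of 28 lower, where 0.236% were. At an unadjusted p under 0.05, 11 members were higher and 3 lower, against 7.75% and 10.8% of all genes. The smallest adjusted p was that of SNHG17, at 0.0866. This result turned on the scaling and the filter. With a filter of 5 FPKM 4 members were called higher and 1 lower, where 0.704% and 1.02% of all genes were. With the length trend removed it was 3 and 1 members, where 0.887% and 1.28% of all genes were called. With libraries rescaled to equal sums it was 6 and 2 members, where 2.15% and 8.83% of all genes were called, so that the lower calls among members were not above the background. With median scaling it was 7 and 1 members, where 3.65% and 1.56% of all genes were called. GAS5, SNHG6 and SNHG17 (higher) and SNHG14 (lower) were called in each of those 4 settings.

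Of the hosts of box C/D snoRNAs, GAS5 (chromosome 1, 173863900 to 173868882, minus strand) is the transcript first isolated from growth-arrested cells, and its spliced RNA is a known substrate of nonsense-mediated decay. It had 349 FPKM in treated and 173 FPKM in untreated 22Rv1, a change of 1.01, and 23.7 FPKM in treated and 14.5 FPKM in untreated PC3, a change of 0.67. Both lines were thus higher with morusin, with an adjusted p of 0.11 for the treatment term, and the level in 22Rv1 was 14.8 times that in PC3 among treated cells and 12.0 times among untreated cells. SNHG29, formerly named LRRC75A-AS1 and host of SNORD49A, SNORD49B and SNORD65, had 448 FPKM in treated and 293 FPKM in untreated 22Rv1, a change of 0.61. In PC3 it had 129 FPKM in treated and 91.1 FPKM in untreated cells, a change of 0.49 (adjusted p = 0.168).

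SNHG6, host of SNORD87, showed the same order, with 83.8 FPKM in treated and 35.1 FPKM in untreated 22Rv1, a change of 1.23. In PC3 it had 31.6 FPKM in treated and 18.3 FPKM in untreated cells, a change of 0.75 (adjusted p = 0.0924). ZFAS1, which hosts the SNORD12 family and lies antisense to the start of ZNFX1, had 36.6 FPKM in treated and 16.1 FPKM in untreated 22Rv1, a change of 1.14. Unlike the hosts above it was more abundant in PC3, with 66.0 FPKM in treated and 43.5 FPKM in untreated cells, a change of 0.59 (adjusted p = 0.123). ZNFX1 itself ran the other way, at 2.25 and 3.90 FPKM in treated and untreated 22Rv1 and 15.9 and 22.8 FPKM in treated and untreated PC3. SNHG5, host of SNORD50B, had 82.7 FPKM in treated and 53.6 FPKM in untreated 22Rv1, against 4.44 FPKM in treated and 3.31 FPKM in untreated PC3, with changes of 0.62 and 0.34. SNHG32, the single member that GENCODE 29 types as protein-coding, hosts SNORD48 and SNORD52. Its change was 0.53 in 22Rv1, with 81.7 FPKM treated and 56.2 FPKM untreated, and 0.20 in PC3, with 33.6 FPKM treated and 29.1 FPKM untreated. A processed transcript without a symbol overlaps exons of SNHG32 on the same strand. It had 2.68 and 1.09 FPKM in treated and untreated 22Rv1 and 17.0 and 1.85 FPKM in treated and untreated PC3. How reads were divided between these genes was not tested.

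Among the box C/D hosts with small changes, SNHG16, host of the SNORD1 family, had 31.8 FPKM in treated and 31.6 FPKM in untreated 22Rv1, a change of 0.01 that was -0.18 after rescaling to equal sums, and 78.7 FPKM in treated and 67.2 FPKM in untreated PC3, a change of 0.23. SNHG1, whose introns give a series of snoRNAs and whose spliced RNA is a classical substrate of nonsense-mediated decay, had 31.6 FPKM in treated and 28.6 FPKM in untreated 22Rv1, a change of 0.14 that was -0.05 after rescaling. In PC3 it had 15.4 FPKM in treated and 15.5 FPKM in untreated cells, a change of -0.01 that was 0.13 under median scaling. Neither gene kept 1 sign of its change under all scalings in 22Rv1. SNHG26, host of SNORD93, was lower with morusin in both lines, with 3.10 FPKM in treated and 5.01 FPKM in untreated 22Rv1 (change -0.55) and 3.67 FPKM in treated and 4.92 FPKM in untreated PC3 (change -0.34).

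Of the hosts of box H/ACA snoRNAs, SNHG17 (chromosome 20, 38420588 to 38435353, minus strand), which carries the SNORA71 family, was among the hosts furthest above their untreated level in both lines. It had 32.9 FPKM in treated and 11.5 FPKM in untreated 22Rv1, a change of 1.44, and 26.5 FPKM in treated and 14.8 FPKM in untreated PC3, a change of 0.80. SNHG8, host of SNORA24, had 63.6 FPKM in treated and 26.8 FPKM in untreated 22Rv1, a change of 1.21, and 7.75 FPKM in treated and 4.03 FPKM in untreated PC3, a change of 0.80 (adjusted p = 0.0996). In both genes each treated library was above the untreated library of its line. DANCR, an RNA known for holding progenitor cells undifferentiated and host of SNORA26, had 90.6 FPKM in treated and 56.2 FPKM in untreated 22Rv1, a change of 0.68, and 28.5 FPKM in treated and 21.1 FPKM in untreated PC3, a change of 0.42. SNHG15, host of SNORA9, had 27.3 FPKM in treated and 15.3 FPKM in untreated 22Rv1, a change of 0.79, and 10.1 FPKM in treated and 7.52 FPKM in untreated PC3, a change of 0.38.

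Other H/ACA hosts had smaller changes or a different order of the lines. SNHG7, host of the SNORA17 pair, had 32.1 FPKM in treated and 25.0 FPKM in untreated 22Rv1, a change of 0.35, and 4.54 FPKM in treated and 2.51 FPKM in untreated PC3, a change of 0.66. Its change was thus the larger in PC3. SNHG12, whose introns carry several H/ACA snoRNAs and SNORD99, had 11.1 FPKM in treated and 8.94 FPKM in untreated 22Rv1, a change of 0.28, and 4.22 FPKM in treated and 2.92 FPKM in untreated PC3, a change of 0.41. SNHG3, host of the SNORA73 pair, had 9.57 FPKM in treated and 8.69 FPKM in untreated 22Rv1, a change of 0.13 that was -0.05 after rescaling to equal sums, and 5.61 FPKM in treated and 6.94 FPKM in untreated PC3, a change of -0.26. It shares exons on the same strand with RCC1, which was near its untreated level in both lines, at 73.1 and 70.4 FPKM in treated and untreated 22Rv1 and 44.6 and 43.9 FPKM in treated and untreated PC3.

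SNHG14 and SNHG4 stood on the low side. SNHG14 (chromosome 15, 24978583 to 25419462, plus strand) spans 440880 bases of the Prader-Willi and Angelman region, carries the SNORD115 and SNORD116 clusters, and in neurons its far end silences the paternal copy of UBE3A. It had 11.9 FPKM in treated and 19.7 FPKM in untreated 22Rv1, a change of -0.68, and 8.90 FPKM in treated and 24.8 FPKM in untreated PC3, a change of -1.38 (adjusted p = 0.11). UBE3A, on the opposite strand, had 16.7 and 18.2 FPKM in treated and untreated 22Rv1 and 16.2 and 29.9 FPKM in treated and untreated PC3. SNRPN, which overlaps SNHG14 on the same strand, was slightly higher with morusin, at 58.5 and 53.2 FPKM in treated and untreated 22Rv1 and 60.4 and 54.7 FPKM in treated and untreated PC3. SNHG4, host of SNORA74A, had 5.36 FPKM in treated and 8.53 FPKM in untreated 22Rv1, a change of -0.58, and 4.70 FPKM in treated and 8.11 FPKM in untreated PC3, a change of -0.68 (adjusted p = 0.188). MATR3, an RNA-binding protein gene whose exons overlap SNHG4 on the same strand, was also lower, at 34.8 and 110.5 FPKM in treated and untreated 22Rv1 and 44.6 and 94.4 FPKM in treated and untreated PC3. How reads were divided between SNHG4 and MATR3 was not tested.

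The short hosts SNHG9, SNHG19 and SNHG25 were higher with morusin in 22Rv1 and near their untreated level in PC3. SNHG9, host of SNORA78, had 6.67 FPKM in treated and 1.40 FPKM in untreated 22Rv1, a change of 1.68, and 1.22 FPKM in treated and 1.16 FPKM in untreated PC3, a change of 0.04. SNHG19, host of SNORD60, had 13.8 FPKM in treated and 5.77 FPKM in untreated 22Rv1, a change of 1.13, and 1.92 FPKM in treated and 1.84 FPKM in untreated PC3, a change of 0.04. SNHG25, host of SNORD104, had 5.78 FPKM in treated and 2.66 FPKM in untreated 22Rv1, a change of 0.89, and 1.43 FPKM in treated and 1.47 FPKM in untreated PC3, a change of -0.02. Signs in PC3 flipped with the processing, for SNHG9 and SNHG19 after rescaling to equal sums or removing the length trend, and for SNHG25 under median scaling. These genes rested on few reads. By the depth estimate SNHG9 had about 47.6 and 12.2 read pairs in treated and untreated 22Rv1, and the counting error of its log2 ratio was 0.46. For SNHG25 that error was 0.52 and for SNHG19 it was 0.26 in 22Rv1. In PC3 the errors were 0.53 for SNHG9, 0.44 for SNHG19 and 0.67 for SNHG25, so changes near 0 there are not resolved. Whether the response of these hosts differs between the lines was not tested. Counting error is only a lower limit of the true error.

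The other 11 members stayed under 5 FPKM in every library, at 0 to 4.93 FPKM. Those compared had changes between -0.33 and 0.40 in 22Rv1 (6 members) and between -0.70 and 0.14 in PC3 (7 members). None was thus past 2-fold with the constant of 1 added. The lower end in both lines was SNHG20, named here after its values were seen. It had 3.73 FPKM in treated and 4.93 FPKM in untreated 22Rv1 and 1.45 FPKM in treated and 2.97 FPKM in untreated PC3. Without the constant its ratio in PC3 was 0.487, which is past 2-fold.

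**Figure D2:**
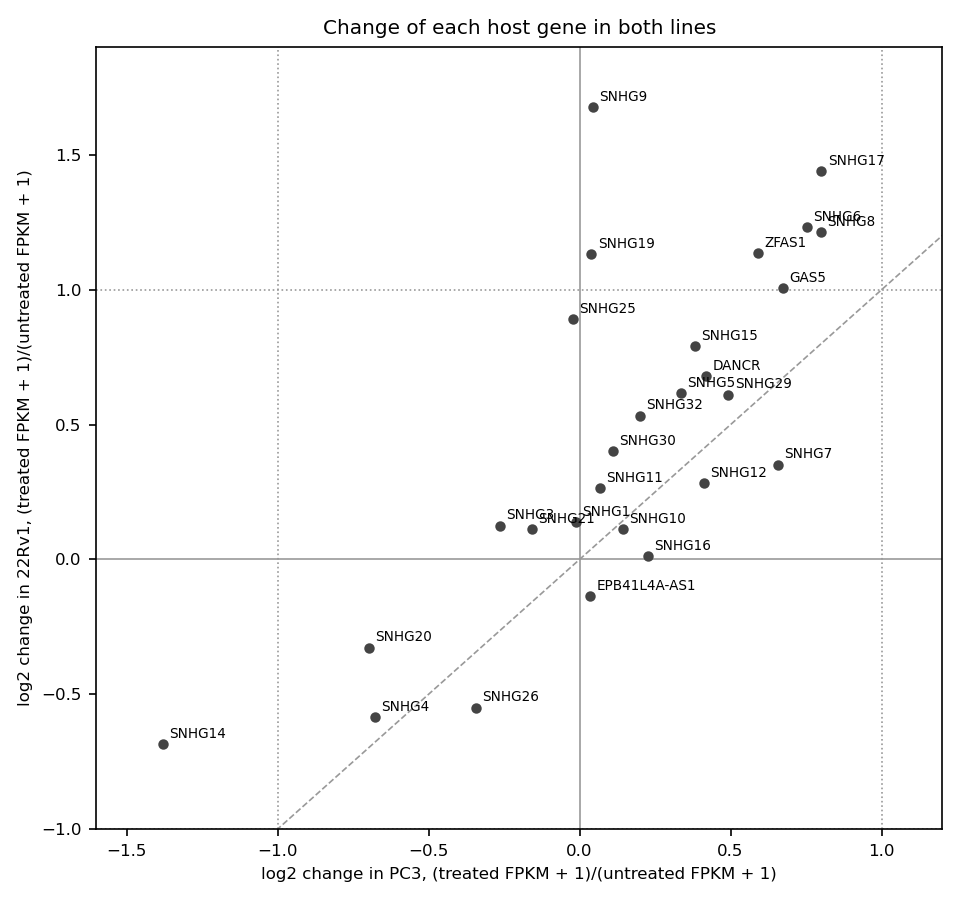
Change with morusin (log2, FPKM + 1) in 22Rv1 (vertical) against that in PC3 (horizontal) for the 27 hosts compared in both lines, with dotted lines at 2-fold and a dashed line of equal change. SNHG17, SNHG8, SNHG6 and GAS5 lie at the upper right, SNHG14 at the lower left, and SNHG9 and SNHG19 high on the 22Rv1 axis near 0 in PC3.

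Changes in the lines ran in parallel across members. Of 27 members compared in both lines 18 were above 0 in both, where 30.15% of 11240 genes were, and 4 were below 0 in both, where 37.7% were. The change was larger in 22Rv1 for 21 of 27 members, where 57.3% of all genes were. Across these members Pearson's r of the changes was 0.74 and Spearman's rho 0.71, against 0.52 and 0.50 over all genes. The genes share the same 4 libraries and are not independent points. The difference between the lines' changes has no residual degree of freedom and was not tested.

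Transcript length moved with the change. In 22Rv1 the correlation of the change with log10 of median transcript length was -0.53 over 27 members and -0.31 over 13310 genes, and in PC3 it was -0.13 over 28 members and -0.19 over 12868 genes. After the trend over all genes was removed, the median change of members was 0.44 in 22Rv1, with 20 of 27 above 0, and 0.13 in PC3, with 18 of 28 above 0. GAS5 and SNHG19 then fell below 2-fold in 22Rv1, at 0.89 and 0.85, while SNHG9 was at 1.41 and SNHG17 at 1.37.

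**Figure D3:**
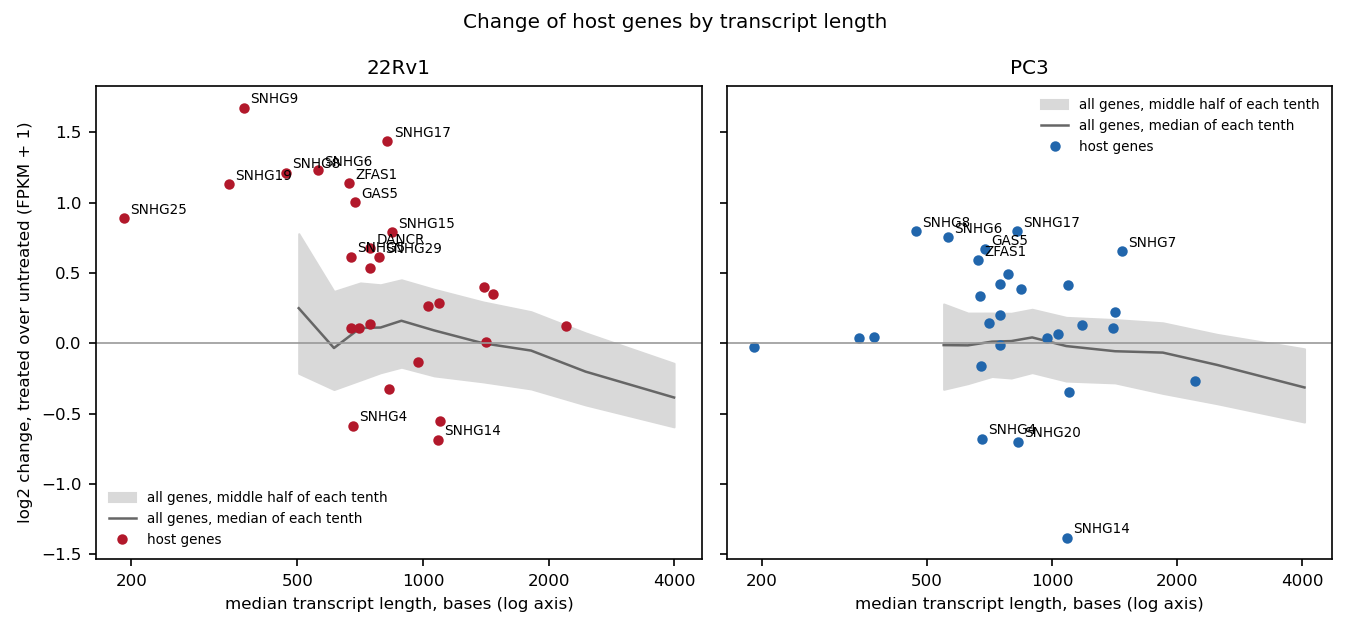
Change with morusin (log2) against median transcript length on a log axis, in 22Rv1 and PC3, with hosts as points and all genes as the median and quartiles in 10 length classes. In 22Rv1 the median of all genes lies at 0.25 in the shortest class and -0.39 in the longest, and after removal of the trend over all genes 20 of 27 hosts were above 0.

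RNAs without a poly(A) tail differed between the libraries as well. All 992 snoRNA and scaRNA rows summed to 239 and 115 FPKM in treated and untreated 22Rv1 and to 169 and 107 FPKM in treated and untreated PC3. The 7SK RNA had 55.4 and 8.61 FPKM in treated and untreated 22Rv1 and 14.6 and 5.54 FPKM in treated and untreated PC3. U1 rows, 30 in number, summed to 826 and 2.86 FPKM in treated and untreated 22Rv1 and to 12.9 and 2.53 FPKM in treated and untreated PC3. The part of this shift in the hosts' changes was not tested. Inside the members themselves lay 144 snoRNA or scaRNA rows in 30 hosts, of which 59 were at 0 in every library and 8 reached 1 FPKM. They summed to 21.6 and 16.5 FPKM in treated and untreated 22Rv1 and to 9.22 and 10.6 FPKM in treated and untreated PC3. SNORA71B, inside SNHG17, had 4.53 and 1.85 FPKM in treated and untreated 22Rv1 and 1.95 and 1.18 FPKM in treated and untreated PC3. SNORD104, inside SNHG25, had 5.33 and 4.57 FPKM in treated and untreated 22Rv1 and 2.08 and 4.39 FPKM in treated and untreated PC3. The library kit selects poly(A) RNA, so these rows do not measure mature snoRNA levels.

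Lists of related genes were read in the same way. Over all genes 49.4% in 22Rv1 and 44.2% in PC3 were above 0, and 3.48% and 1.24% were at least 2-fold higher. Ribosomal protein genes that host snoRNAs, whose mRNAs start with a pyrimidine run, were above 0 for 22 of 22 genes in each line, with a median of 0.64 in 22Rv1 and 0.39 in PC3. At least 2-fold higher in 22Rv1 were 4 of them, among them RPS20 and RPL32. RPS20 had 723 and 295 FPKM in treated and untreated 22Rv1 and 108.5 and 65.1 FPKM in treated and untreated PC3. RPL32 had 325 and 156 FPKM in treated and untreated 22Rv1. Lowest by the mean of both changes was RPSA, with changes of 0.20 in 22Rv1 and 0.28 in PC3. Other mRNAs with such a start, 18 in number and including the translation factors, had medians of 0.39 in 22Rv1 and 0.36 in PC3, with 15 and 18 above 0 and none past 2-fold. TPT1 had 621 and 365 FPKM in treated and untreated 22Rv1 and 371 and 269.5 FPKM in treated and untreated PC3. EIF4B was the lowest of this list by the mean of both changes, with -0.24 in 22Rv1 and 0.16 in PC3. Protein-coding hosts other than ribosomal protein genes stayed nearer to the background, with medians of 0.06 in 22Rv1 and 0.09 in PC3 over 21 genes, none past 2-fold. TAF1D, one of these, had 48.0 and 27.0 FPKM in treated and untreated 22Rv1 and 40.3 and 27.3 FPKM in treated and untreated PC3. TOMM20 was the lowest of them by that mean, with changes of -0.30 in 22Rv1 and -0.20 in PC3. The lists share genes. EEF1B2, EEF2 and RACK1 are also in the list of other mRNAs with a pyrimidine start. NOP56 and DKC1 are also in the list of core and assembly proteins below.

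The factors of nonsense-mediated decay had medians of -0.03 in 22Rv1 and 0.01 in PC3 over 17 genes, with 8 and 9 above 0. SMG5, which recruits enzymes to the marked mRNA, had 52.2 and 61.7 FPKM in treated and untreated 22Rv1. In PC3 it had 13.1 and 33.9 FPKM in treated and untreated cells. With the constant of 1 added it was the single factor past 2-fold, lower in PC3, where 2.64% of all genes were. SMG1, the kinase that phosphorylates UPF1, had 5.78 and 9.66 FPKM in treated and untreated 22Rv1 and 7.98 and 13.9 FPKM in treated and untreated PC3. MAGOH, of the exon junction complex, had 68.3 and 39.5 FPKM in treated and untreated 22Rv1 and 21.0 and 17.2 FPKM in treated and untreated PC3. Other RNAs reported as substrates of this decay, most of them stress-response genes, had medians of 0.36 in 22Rv1 and 0.97 in PC3 over 10 genes. At least 2-fold higher were 1 and 5 of them, where 3.48% and 1.24% of all genes were. The order of the lines was thus the opposite of that of the hosts. GADD45B, a stress-induced growth regulator, had 50.4 and 5.43 FPKM in treated and untreated 22Rv1 and 71.3 and 13.6 FPKM in treated and untreated PC3. It rose by the limma treatment term (2.65, adjusted p = 0.000919). This was the single call in all 6 lists, where 0.351% of all genes were called higher. DDIT3, a transcription factor of the stress response, had 26.0 and 16.4 FPKM in treated and untreated 22Rv1. In PC3 it had 82.1 and 8.33 FPKM in treated and untreated cells. SESN2 was the lowest of this list by the mean of both changes, with -0.22 in 22Rv1 and -0.09 in PC3. The core and assembly proteins of snoRNPs, the particles that hold snoRNAs, had medians of 0.21 in 22Rv1 and 0.07 in PC3 over 18 genes. NOP10 alone was at least 2-fold higher, at 58.6 and 28.8 FPKM in treated and untreated 22Rv1. ZNHIT6 was the lowest of this list by the mean of both changes, with -0.22 in 22Rv1 and -0.59 in PC3.

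**Figure D4:**
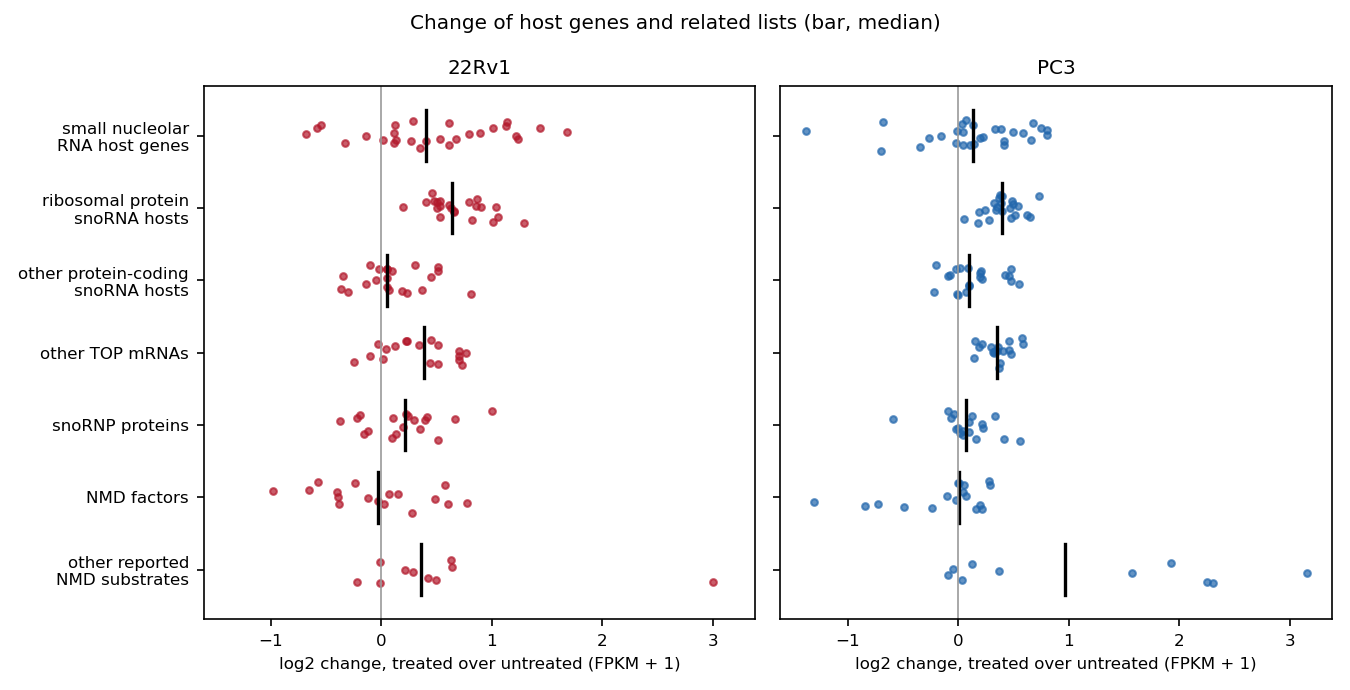
Change with morusin (log2) of each gene in the hosts and in 6 lists of related genes, for 22Rv1 and PC3, with bars at the medians (TOP, pyrimidine start; NMD, nonsense-mediated decay). The ribosomal protein hosts lie above 0 throughout in both lines (medians 0.64 and 0.39), and the noncoding hosts spread more widely, with medians of 0.40 and 0.14.

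Members with a pyrimidine start at the exact RefSeq base had the higher median change in both lines. It was of 0.58 in 22Rv1 (6 members) and 0.27 in PC3 (6 members), against 0.14 (17 members) and 0.12 (18 members) for members with another start. SNHG6, SNHG9, SNHG15 and SNHG25 had no RefSeq entry and are in neither group. Their changes were 0.79 to 1.68 in 22Rv1 and -0.02 to 0.75 in PC3. Over all genes the medians were 0.12 with such a start and -0.04 without in 22Rv1, and 0.10 with and -0.07 without in PC3. SNHG17, SNHG8 and GAS5 were among the largest changes without that start, and SNHG4 was lower in both lines with a run of 13 bases, the longest among these 6 members. The medians by start are descriptions over few members and were not tested.

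The hosts' levels differed widely between the lines. The limma line term called 16 of 28 members higher in 22Rv1, where 36.1% of all genes were, and 3 of 28 lower, where 28.3% were. The largest differences were those of SNHG5, 3.80 ± 0.20 (SE, log2, adjusted p = 7.09e-07), and GAS5, 3.66 ± 0.19 (SE, log2, adjusted p = 5.87e-07). The next were SNHG7 at 2.74 ± 0.21 and SNHG8 at 2.68 ± 0.21, and then SNHG19 at 1.80, SNHG29 at 1.73 and DANCR at 1.51. Higher in 22Rv1 by about 1 on this scale were SNHG12, SNHG15, SNHG6, SNHG32, SNHG25, SNHG9, SNHG10 and SNHG1, at 1.28 down to 0.92, and SNHG20 was higher by 0.77. SNHG10, like SNHG20 under 5 FPKM, is named here after its values were seen. For SNHG9 the average of 0.97 joins a difference of 1.79 among treated and 0.15 among untreated cells, and its limma call was lost with no filter (adjusted p = 0.221) and with line as the only term, that is without the pairing (adjusted p = 0.175). With no filter the calls of SNHG10, SNHG20 and SNHG25 were lost too (adjusted p = 0.0544, 0.0867 and 0.0989), and without the pairing those of SNHG20, SNHG6 and ZFAS1 (adjusted p = 0.0828, 0.0902 and 0.0748). Lower in 22Rv1 were SNHG16 at -1.17 (adjusted p = 0.000481), ZFAS1 at -1.11 (adjusted p = 0.0013) and SNHG31, a gene under 2 FPKM named here after its values were seen, at -1.02 (adjusted p = 0.00031). SNHG17, SNHG14, SNHG4 and SNHG26 were not called, with estimates between -0.08 and 0.11, nor was SNHG3, at 0.48 (adjusted p = 0.0848). For SNHG17 the average joins differences of -0.34 among untreated and 0.30 among treated cells. For SNHG14 it joins -0.32 among untreated and 0.38 among treated cells. These tests compare 2 libraries of each line, with treated and untreated cells as the pair. Their SE rests on 1 residual degree of freedom and on the spread borrowed across genes (7.95 prior degrees of freedom). It does not measure the spread between replicate cultures, since each group had 1 library.

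**Figure D5:**
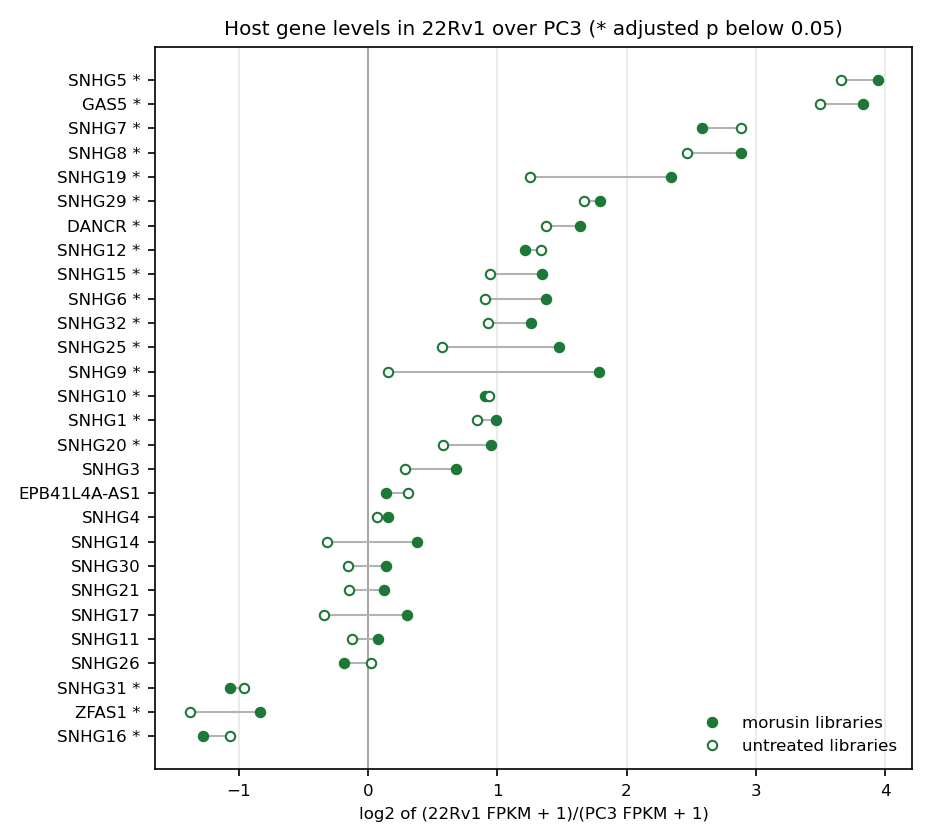
Level in 22Rv1 over PC3 (log2, FPKM + 1) per host, for morusin-treated and untreated cells, with an asterisk where the limma line term has an adjusted p under 0.05. SNHG5 and GAS5 stand at the high end (3.80 and 3.66 by the line term) and SNHG16, ZFAS1 and SNHG31 at the low end (-1.17, -1.11 and -1.02).

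Most members share ground with another gene. Exons of 18 of 32 overlapped those of a gene that is neither a small RNA nor a pseudogene, 7 on the same strand and 15 on the opposite strand. The library kit does not mark strand, and strand would not separate pairs on the same strand. Reads within the shared exons can thus not be assigned by strand, and the values of these 18 members are uncertain to that extent. Besides the pairs above, DIPK1B, opposite SNHG7, had 18.2 and 13.2 FPKM in treated and untreated 22Rv1 and 7.73 and 8.72 FPKM in treated and untreated PC3. GLRX5, opposite SNHG10, had 61.5 and 44.9 FPKM in treated and untreated 22Rv1 and 32.7 and 32.1 FPKM in treated and untreated PC3, against at most 3.52 FPKM for SNHG10.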

How the data were processed

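Total RNA of 4 cultures was sequenced as 150-base read pairs after preparation with the TruSeq RNA v2 kit, which selects poly(A) RNA and does not mark strand, and the labels' protocols name that kit. The authors deposited gene-level FPKM, and the submitters' processing notes name Trimmomatic, HISAT2, StringTie and GRCh38. Versions, the annotation release and the use of strand in counting were not given in the sources used here. FPKM is relative to each library's total, so a few abundant transcripts move all other values.

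Symbols came from a gene name table (60261 of 60617 IDs matched), and positions, types and lengths from GENCODE 29. Members and lists were chosen with earlier results of these data known. FPKM are not counts, so changes were taken on log2(FPKM + 1) for genes with 1 FPKM or more, which understates the change of low genes. limma 3.58.1 (R 4.3.3) modelled every gene that reached 1 FPKM in 2 or more libraries by treatment and line, letting the prior variance follow the mean, at a threshold of 0.05. The line pairs the libraries by the labels. The script was checked on data with known answers. Named with values are members at 5 FPKM or more, members past 2-fold, and up to 4 genes of each list. Others are marked where they were chosen after their values were seen.

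Depth was read from the steps of low values in single-exon genes (tolerance 1.5%). Counting errors cover counting alone. Alternatives changed the added constant, the scaling, the filter, the length trend, the mean trend and the block. Python 3.11.15, numpy 2.4.6, pandas 2.3.3 and matplotlib 3.10.9 were used. Another marker of the androgen receptor list is not reported here.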

Additional observations from a re-analysis of the deposited data

Results flagged for a closer look

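SNHG3 stood on opposite sides of its untreated level in the lines, with changes of 0.13 in 22Rv1 and -0.26 in PC3, so that the change in 22Rv1 minus that in PC3 was 0.39 on the log2 scale. This difference was not tested, since each line has 1 treated and 1 untreated library, and the change in 22Rv1 was -0.05 after rescaling to equal sums.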

How the results depend on the processing

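Members at least 2-fold higher in 22Rv1 numbered 3 with a constant of 5 and 4 after rescaling to equal sums. The main setting had 7 of 27, where 3.48% of all genes were. The share of all genes past 2-fold in the other settings is not given here. The median change in 22Rv1 was 0.54 with a constant of 0.1, 0.26 after rescaling and 0.62 with a filter of 5 FPKM, and that in PC3 was 0.40 with that filter. The treatment term called 6 members higher and 2 lower after rescaling (2.15% and 8.83% of all genes), 7 and 1 under median scaling (3.65% and 1.56%), 4 and 1 with the filter of 5 FPKM (0.704% and 1.02%), and 3 and 1 without the length trend (0.887% and 1.28%), against 0 and 0. The adjusted p of SNHG17 ran between 0.00153 and 1 over 10 settings. After rescaling, the median over all genes was -0.18 in 22Rv1 and -0.14 in PC3. With a constant of 0.1 it was -0.01 in 22Rv1, and with the filter of 5 FPKM 0.0009 in 22Rv1 and -0.03 in PC3. Without the replicate block the treatment term called 0 members, where 0 of 13980 genes were called. The line term then called 13 members higher and 2 lower (28% and 23.1% of all genes), against 16 and 3 (36.1% and 28.3%). Over the other settings the line term called 12 to 17 members higher and 2 to 4 lower. The shares of all genes there ran from 19.3% to 37.2% higher and from 15.9% to 33.1% lower, lowest with no filter. The cause was not tested. No member past 2-fold in a line turned direction in that line under these settings. With 1 library a group, leaving out a library was not possible within a line. Depth limits the short hosts SNHG9, SNHG19 and SNHG25 and the members under 5 FPKM.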
